A study of Homo sapiens with 9 samples.

Results

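The response of MDA-MB-231 cells to wild-type MEL-18 was described across all genes with enough counts, beyond the few genes that changed most. MDA-MB-231 is an established human breast adenocarcinoma line of the triple-negative, basal B type with a mesenchymal appearance. The comparison set 3 libraries from cells infected with the pLVX lentivirus carrying wild-type MEL-18 (MEL-18 WT) against 3 libraries from cells infected with the empty pLVX vector, 6 of the 9 libraries in the series. The other 3 came from cells carrying MEL-18 T334A, a mutant form that cannot be phosphorylated at the altered site. They entered the estimate of the spread and are given beside a few genes. All lines expressed their construct stably and were grown for 48 h in DMEM with 10% serum, with no further treatment. Of 26364 genes in the files, 14737 were tested, with PCGF2, the gene of MEL-18 itself, left out of every count.

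MEL-18, also called PCGF2, is a RING finger protein of the Polycomb group. It takes the place of BMI1 or another PCGF protein beside the ubiquitin ligase RING1 or RNF2 in Polycomb repressive complex 1 (PRC1), which marks chromatin by ubiquitinating histone H2A. PRC1 and the methyltransferase complex PRC2 are known for holding developmental genes silent, often at promoters rich in CpG dinucleotides.

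The 6 libraries held 31643722 to 37005302 counts, and PCGF2 stood at 22.2 to 23.8 CPM (a gene's reads per fixed number of reads of the library, scaled between libraries by TMM) with the vector and at 1279 to 1292 CPM with MEL-18 WT. Reads of the transgene and of the cell's own gene were not told apart. Markers of the line summed to 4686 to 4808 CPM with the vector and 4505 to 4615 CPM with MEL-18 WT. The luminal markers ESR1, PGR and CDH1 held 6, 3 and 9 counts over the vector libraries and 7, 3 and 15 over the MEL-18 WT libraries. Among markers of other cell types, ADIPOQ, LEP and CDX2 were at 0 in all 6 libraries and CD3D and MS4A1 held at most 5 counts in a group. Other such markers were expressed. CD68, of macrophages, held 5308 counts with the vector and 5788 with MEL-18 WT, GAD1, of neurons, 1011 and 1342, and COL1A1, of fibroblasts, 858 and 1251. The other macrophage markers were low. CD14 and CSF1R held 46 and 34 counts with the vector and 63 and 25 with MEL-18 WT. ITGAM, TYROBP, LYZ and AIF1 held 9, 1, 3 and 1 counts with the vector and 7, 0, 1 and 2 with MEL-18 WT. The other markers of neurons and fibroblasts are given below. The replicates are described as biological, without a statement that they came from separate infections. The p-values therefore measure the spread between these cultures, and the construct cannot be told apart from the line that carries it. In bulk RNA, fewer cells that express a gene and less of its RNA per cell cannot be told apart either.

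Many genes changed with MEL-18 WT, and most of them by little. By edgeR's quasi-likelihood test at an adjusted p below 0.05, 4241 genes (28.8% of those tested) were called, 2123 higher (14.4%) and 2118 lower (14.4%). The values of the groups did not overlap in 6287 genes (42.7%). The median change among called genes was 1.21-fold for the higher and 1.13-fold for the lower. In 999 genes the change was at most 1.1-fold, 400 of them higher and 599 lower. The balance turned with size: 259 genes (1.76%) changed more than 2-fold, 196 higher (1.33%) and 63 lower (0.427%). Of the 63 called genes that changed more than 4-fold, 47 were higher and 16 lower. When the test asked for more than 1.5-fold it called 190 genes (1.29%), 150 higher and 40 lower. With library totals in place of TMM scaling, 60.1% of calls were higher, against 50.1% with TMM.

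**Figure D1:**
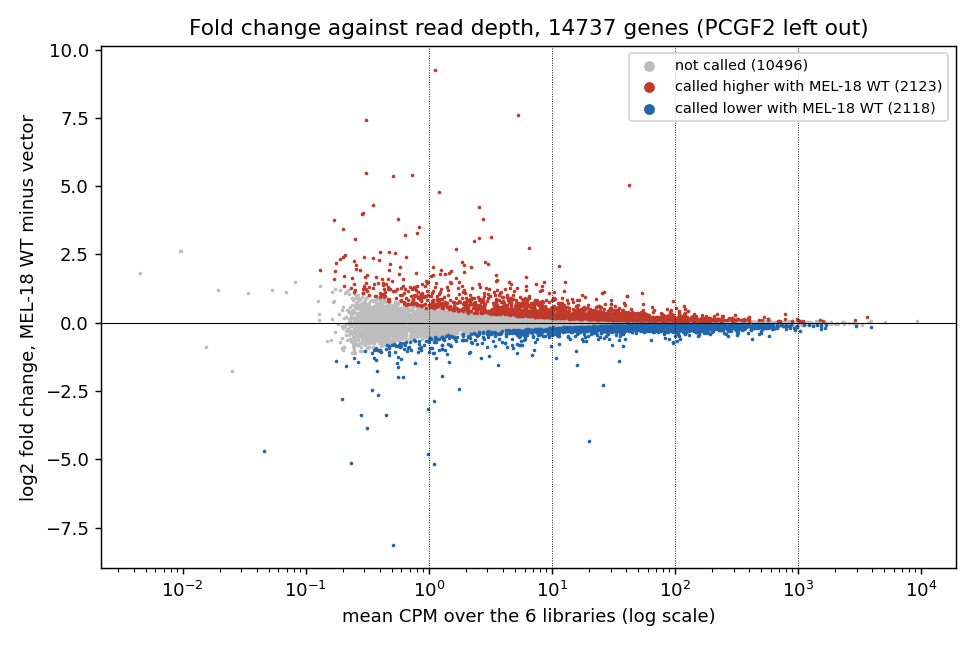
Each point is 1 of 14737 tested genes, with its mean CPM over the 6 libraries on a log axis and its log2 fold change, MEL-18 WT minus vector, on the other. Red and blue points are the 2123 and 2118 genes called higher and lower by edgeR's quasi-likelihood test, and dotted lines bound the strata of read depth. The spread narrows from left to right, and red points reach farther from 0 than blue ones at low depth.

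The direction of the calls went with read depth. Depth here is mean CPM over the 6 libraries, which is not divided by gene length and so does not rank genes by transcript number. Below 1 CPM, 160 of 1916 tested genes were called higher (8.35%) and 73 lower (3.81%), so that 68.7% of the calls were higher. From 1 to 10 CPM, 616 of 3237 were higher (19%) and 244 lower (7.54%), and 71.6% of the calls were higher. From 10 to 100 CPM the directions were near balance, with 1114 of 7017 higher and 1153 lower. From 100 to 1000 CPM, 226 of 2498 were higher (9.05%) and 636 lower (25.5%), and 26.2% of the calls were higher. At 1000 CPM and over, 7 of 69 were higher and 12 lower.

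The size of the changes fell along the same order. The median fold change of called genes was 2.15 below 1 CPM, 1.41 from 1 to 10 CPM, 1.14 from 10 to 100 CPM and 1.1 from 100 to 1000 CPM. No called gene above 100 CPM changed by 2-fold, and at 1000 CPM and over the largest change was 1.22-fold. The median standard error of log2 fold changes fell from 0.31 below 1 CPM to 0.03 above 100 CPM, so only larger changes could be called at low depth. In the stratum of 10 to 100 CPM the share of calls that were higher, 49.1% in the fit above, was 60.5% with library totals alone and 61.0% outside the stretches of chromosomes described below. From 100 to 1000 CPM it was 40.5% with library totals alone. The opposite directions below 10 CPM and from 100 to 1000 CPM were also seen under both of these settings.

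**Figure D2:**
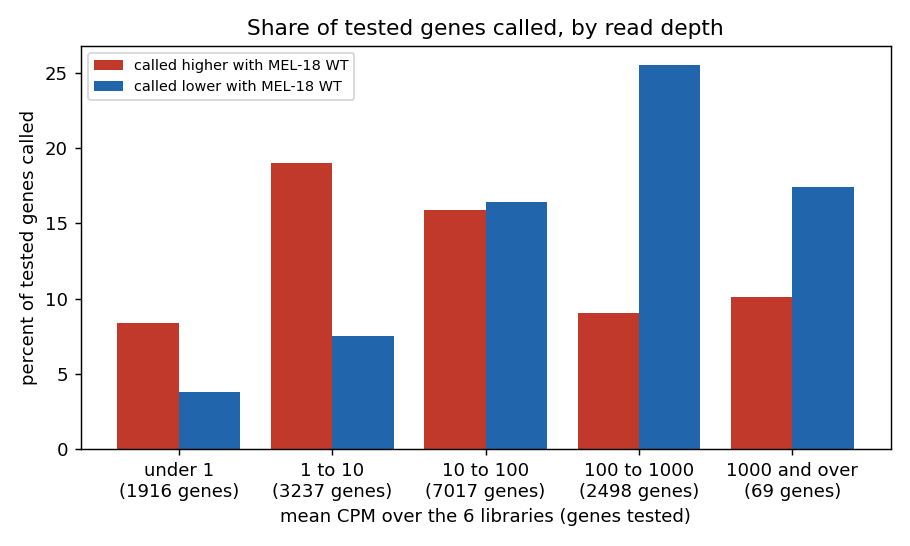
Bars give the percent of tested genes called higher (red) or lower (blue) with MEL-18 WT in 5 strata of mean CPM, with the number of tested genes under each. Genes called higher outnumber those called lower below 10 CPM, and from 100 to 1000 CPM 25.5% were lower against 9.05% higher.

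Reads over genes too low to test were also compared. The 11626 untested genes held 0.0357% to 0.0370% of the counts in the vector libraries and 0.0364% to 0.0421% in the MEL-18 WT libraries. The 398 olfactory receptor genes in the files, which are silent in most tissues, held 14.5 to 14.9 CPM with the vector and 13.7 to 15.3 with MEL-18 WT. The ranges of the 2 groups overlapped in both measures. Genes with at least 1 count numbered 18956 to 18973 with the vector and 19259 to 19636 with MEL-18 WT.

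Among the most abundant transcripts, NT5E, the cell surface enzyme CD73 that makes adenosine, had 1119, 1124 and 1154 CPM with the vector and 928, 907 and 946 CPM with MEL-18 WT. The groups did not overlap, a condition for naming genes by stratum. NT5E fell by 0.29 ± 0.03 on the log2 scale (SE; edgeR adjusted p = 8.3e-09). ACTG1, a cytoplasmic actin, rose from 3380 ± 74 CPM to 3875 ± 108 CPM (SD, n = 3), by 0.20 ± 0.03. ACTB, the other cytoplasmic actin, had a log2 fold change of -0.17 ± 0.03 on chromosome 7, where its neighbours had a median of -0.20, and its call ended at 0.03 when the neighbours' shift was taken out. From 100 to 1000 CPM, TENM3, a teneurin that bridges neurons in development, had 91.2, 94.2 and 97.3 CPM with the vector and 144 to 145 CPM with MEL-18 WT, a change of 1.53-fold. In the same stratum EEF1A2, a translation elongation factor, rose 1.43-fold, and G0S2, an inhibitor of the lipase of fat droplets, rose 1.47-fold. ADGRF5, an adhesion receptor, fell 1.51-fold, from 505 ± 26 CPM to 335 ± 17 CPM (SD, n = 3).

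At the other end were genes that one group all but lacked. Such genes pass the filter on low counts only through the libraries where they are high, so they are described one by one. They are included in the counts above by size and read depth, also in those over 2-fold and 4-fold. The counts of gene lists below include them as well where they are members, such as EPHA3 among the receptor tyrosine kinases. SERP2, a small protein of the endoplasmic reticulum, had 0 counts in each vector library and 71, 87 and 80 counts with MEL-18 WT, at least 73.3-fold higher on a floor of 3 counts over the group. RLBP1, which carries retinaldehyde in the eye, had 0, 0 and 2 counts and then 39, 31 and 35. Its ratio of summed counts, scaled to library size, was 48.5 (exact 95% interval 13.1 to 406, counting error only). SSTR5, a somatostatin receptor, had 1 count with the vector and 25, 22 and 18 with MEL-18 WT, a ratio of 60.1 (10.4 to 2409). NCAM1, the neural cell adhesion molecule, had 2 counts against 34, a ratio of 15.7 (4.03 to 135). In these 4 genes every MEL-18 WT library lay above every vector library. Genes named by their stratum were picked for such separation, so for them it is no further evidence.

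Genes that were all but lost included UCA1, a long noncoding RNA, with 2.41, 2.59 and 1.498 CPM in the vector libraries and at most 0.084 CPM with MEL-18 WT. It held 213 counts over the vector libraries and 6 over the MEL-18 WT libraries, a log2 fold change of -5.17 ± 0.37 (SE). SULT1B1, a sulfotransferase, held 45 counts with the vector and 1 with MEL-18 WT, a ratio of 48.7 (8.30 to 1965) in favour of the vector. MGAT4C, a glycosyltransferase, had 28, 20 and 10 counts with the vector and 2, 2 and 0 with MEL-18 WT. Groups did not overlap in any of the 3, which was a condition for naming genes by stratum.

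The promoters of SERP2 and TMPRSS15, both among the genes that rose most, are printed because they lie at opposite ends of CpG content, the feature linked to Polycomb binding. Each run is the 250 bases before the start site from RefSeq, on the gene's own strand and on build GRCh38.p14, with CG dinucleotides in capitals. The SERP2 promoter, at chr13:44373574-44373823 on the plus strand, holds 36 of them. The TMPRSS15 promoter, at chr21:18403786-18404035 on the minus strand, holds 0. TMPRSS15 encodes enteropeptidase, the protease of the gut that activates trypsinogen, and had 2.23 to 2.71 CPM with the vector and 80.6 to 83.8 CPM with MEL-18 WT.
SERP2: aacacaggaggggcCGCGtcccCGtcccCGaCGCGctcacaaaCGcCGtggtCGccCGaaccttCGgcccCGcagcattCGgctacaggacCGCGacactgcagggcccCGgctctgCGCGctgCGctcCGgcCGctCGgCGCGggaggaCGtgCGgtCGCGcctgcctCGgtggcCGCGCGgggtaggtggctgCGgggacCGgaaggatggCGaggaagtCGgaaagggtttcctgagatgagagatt
TMPRSS15: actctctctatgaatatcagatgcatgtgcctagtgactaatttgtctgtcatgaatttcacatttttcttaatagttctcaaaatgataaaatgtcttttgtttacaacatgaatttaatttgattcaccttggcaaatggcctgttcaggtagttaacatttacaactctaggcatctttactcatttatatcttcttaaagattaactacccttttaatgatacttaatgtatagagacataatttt

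Over all tested genes with a promoter in the RefSeq table (11368 of 14737), the median was 26 CpG per 300 bases around the start site. Genes called higher and more than 2-fold had a median of 17 (126 genes) and those called lower and more than 2-fold 10.5 (38 genes). CpG content also went with read depth, from a median of 14 below 1 CPM to 28 from 100 to 1000 CPM. Within the stratum of 1 to 10 CPM the median was 27 for 435 genes called higher, 15 for 177 called lower and 23 for all 2226 tested. Below 1 CPM it was 17 for the 107 higher, 12 for the 49 lower and 14 for all 1185. At 10 to 100 CPM the medians of higher and lower genes were 28 and 26.

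The genes next to those with the largest changes are given by their summed counts per group. Around SERP2, TSC22D1, a leucine zipper protein, had 16255 counts with the vector and 13812 with MEL-18 WT, a log2 fold change of -0.35, and SMIM2 and TUSC8 held at most 6 counts in either group. Beside TMPRSS15, CHODL had 6 and 26 counts and NCAM2 10 and 19. RLBP1 lay between ABHD2, which was not called (-0.06), and FANCI, which was lower (-0.21), but HAPLN3 and MFGE8 on the side of ABHD2 were higher (0.59 and 0.16). TMEM132D had 3 counts with the vector and 152 with MEL-18 WT, and PIWIL1, the third gene beside it, rose from 12 to 123. Beside SSTR5, its antisense transcript SSTR5-AS1 had 2 counts with the vector and 29 with MEL-18 WT, and CACNA1H, the next tested gene, rose 1.88-fold from 298 to 605 counts. Whether the counting used strand is not given in the sources used here, so SSTR5 and its antisense partner cannot be told apart by these counts.

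Smaller changes were shared by long stretches of neighbouring genes. For each gene the median log2 fold change of the 20 tested genes on either side was taken, in the gene order of the RefSeq assembly. In 12 stretches of at least 40 genes this median lay beyond 0.1 in size. They held 1655 genes, of which 175 were called higher and 789 lower (58.2% called). Outside them 25.1% of 13082 genes were called, 1948 higher and 1329 lower. The stretches were picked by these same fold changes, so the larger share and common direction within them follow in part from that choice. The stretches covered most of chromosome 7, where 359 of 698 tested genes were lower and 29 higher, and 280 genes of chromosome 1 from PDZK1 to DNM3, where 176 were lower and 13 higher with a median log2 fold change of -0.20. A stretch of 147 genes on chromosome 8 had 86 lower and 8 higher, with a median of -0.21, and 182 genes on chromosome 9 had 96 lower and 16 higher. On chromosome 10, 2 stretches went the other way, with 38 higher and 1 lower of 68 genes and 66 higher and 6 lower of 113. These changes were small: the median within each stretch was between 1.08-fold and 1.16-fold.

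**Figure D3:**
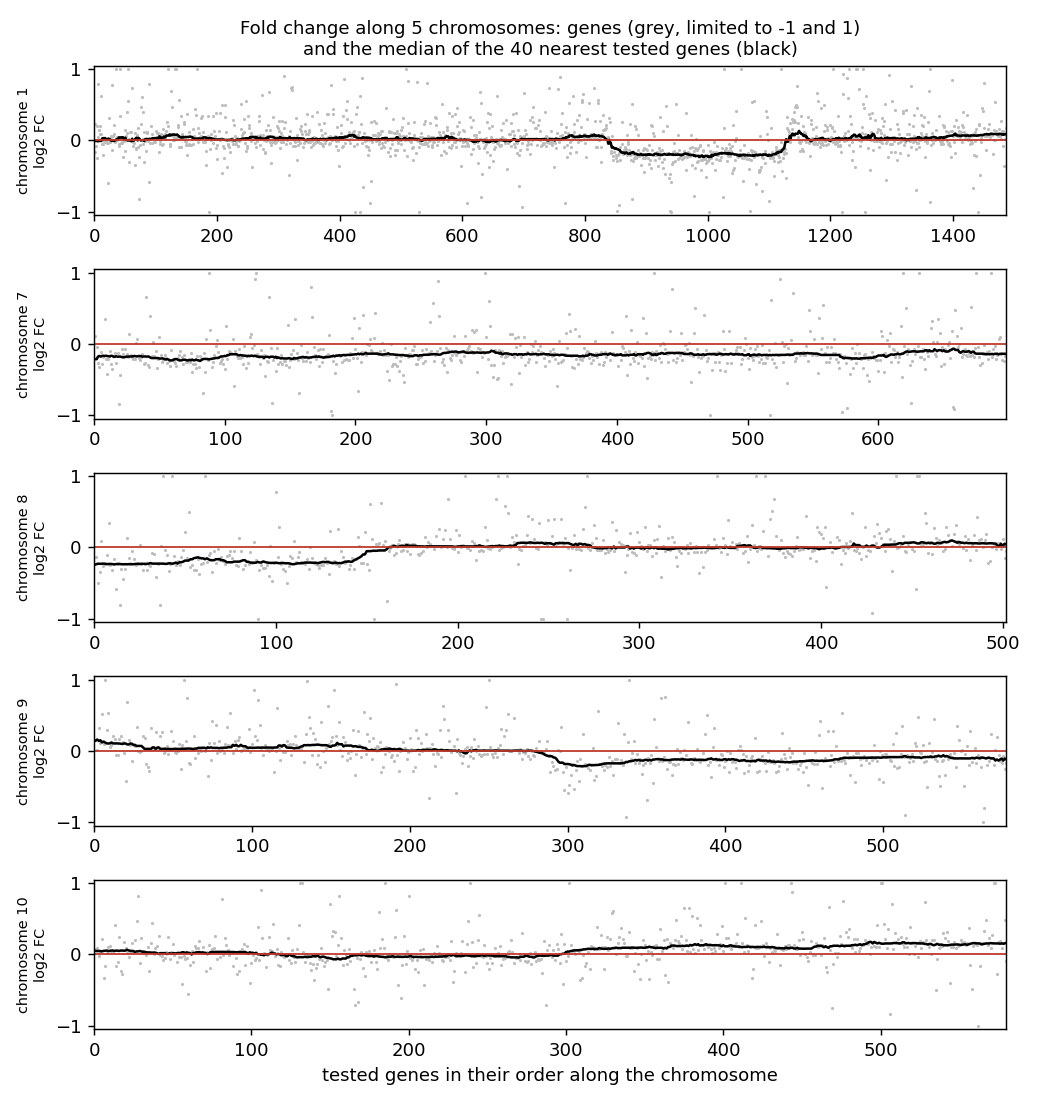
Each panel follows the tested genes of 1 chromosome in order. Grey points are log2 fold changes, MEL-18 WT minus vector, drawn at the edge where they pass 1 or -1, and the black line is the median of the 40 nearest tested genes. The line lies near -0.20 over 280 genes of chromosome 1, below 0 along chromosome 7 and over parts of chromosomes 8 and 9, and above 0 in the last part of chromosome 10.

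When the neighbours' shift was taken out of the fit, the number of genes called lower went from 2118 to 1335, and the total from 4241 to 3137. DNA copy number was not measured, and its part in these shifts was not tested. The median of a gene's neighbours is given below where it lies beyond 0.1, and calls that ended without the shift are named, for genes whose values are described.

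The response was then described by function, over 56 lists of genes. Each count is set beside the share of all tested genes of the same read depth that were called in that direction, weighted by the strata of the list's members, which the text calls the strata shares (higher, then lower). No test of the lists as such was made.

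Receptor tyrosine kinases, the growth factor receptors that feed Ras and ERK signalling, moved in both directions. Of 35 tested, 15 were higher and 9 lower, where the strata would give 14.4% and 13.3%, and the median log2 fold change was 0.14 against 0.00 for all genes. The receptors that rose were mostly of low depth. PDGFRA, a receptor for PDGF, had 4.94, 3.95 and 4.17 CPM with the vector and 18.9, 18.1 and 18.4 CPM with MEL-18 WT. EPHA3, an ephrin receptor, had 3 counts with the vector and 72 with MEL-18 WT, a ratio of 22.2 (exact 95% interval 7.29 to 110). The FGF receptors FGFR3 and FGFR4 rose 1.41-fold and 1.42-fold. MET, EPHA2 and EGFR, named here after their values were seen, fell by 0.26 ± 0.03, 0.20 ± 0.03 and 0.12 ± 0.03 on the log2 scale, from means of 248 ± 6.6, 508 ± 6.6 and 423 ± 9.0 CPM (SD, n = 3). MET and EGFR lie on chromosome 7 among neighbours at -0.15 and -0.14. Without the shift MET was still lower, at -0.13, and the call of EGFR ended, at 0.03.

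Among the growth factors 5 of 34 were higher and 6 lower (strata shares 14.5% and 12.3%). PDGFB, a ligand of the PDGF receptors, rose from 6.26 ± 0.39 CPM to 10.3 ± 0.90 CPM (SD, n = 3; edgeR adjusted p = 9.7e-08). PGF, a ligand of VEGF receptor 1, had 41.9 to 43.5 CPM with the vector and 26.5 to 30.04 CPM with MEL-18 WT, a decrease of 1.54-fold. The number of growth factors higher was 3 without MEL-18 WT replicate 1, by DESeq2 and without the neighbours' shift, and the number lower was 4 without that shift. RASGRP3, which loads GTP onto Ras and Rap, rose 6.74-fold, and its relative RASGRP1 rose 1.46-fold, from 1.57 ± 0.25 to 2.30 ± 0.21 CPM. The neighbours of RASGRP3 had a median of -0.12. Ras exchange factors as a list had 4 of 19 higher and 4 lower (16.3% and 13% in their strata), which became 2 higher without vector replicate 1 and 2 higher and 2 lower without MEL-18 WT replicate 3, and 2 lower without the neighbours' shift.

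Inhibitors of ERK moved in both directions. DUSP9, a phosphatase of ERK, had 0.823, 0.981 and 0.765 CPM with the vector and 3.47, 3.64 and 3.46 CPM with MEL-18 WT, a rise of 4.09-fold. DUSP1, an early-induced phosphatase of MAP kinases, fell from 132 ± 3.2 to 87.3 ± 5.5 CPM, by 0.60 ± 0.04 on the log2 scale (edgeR adjusted p = 1.7e-12). SPRY4, a feedback inhibitor of the pathway, fell 1.19-fold. In both of these genes the groups stood apart. Over the list of Ras and ERK inhibitors, 4 of 23 were higher and 6 lower, with strata shares of 13.9% and 17.5%. Of 27 immediate early genes 11 were lower and 4 higher, where the strata would give 16% and 14.6%, among them FOSL2, an AP-1 subunit, which fell by 0.46 ± 0.04 among neighbours at -0.11, and NR4A2, an orphan nuclear receptor, which fell by 0.42 ± 0.11. The number higher was 2 without vector replicate 2.

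Of 18 Wnt targets and inhibitors 8 were higher and 1 lower, against 14.4% and 8.77% in the same strata, with a median log2 fold change of 0.22. The lower one, SFRP1, lost its call in several fits: it was not called by DESeq2, nor without MEL-18 WT replicate 1 or 2. NKD1, an inhibitor of Dishevelled, had 0.427 to 0.624 CPM with the vector and 0.993 to 1.03 CPM with MEL-18 WT, 2.01-fold higher. WNT10B, a ligand, rose from 2.65 ± 0.26 to 4.43 ± 0.46 CPM (SD, n = 3), by 0.74 ± 0.12. WNT11 had 6 counts with the vector and 34 with MEL-18 WT. Ligands and receptors together had 6 of 25 higher and 1 lower (strata shares 13.9% and 13.6%), but 3 higher by DESeq2, without vector replicate 1 or without MEL-18 WT replicate 2. The lower count was 0 without vector replicate 1 or 3 or MEL-18 WT replicate 3 and 2 without MEL-18 WT replicate 1.

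Of 21 Notch receptors, ligands and targets 7 were higher and 2 lower, against 14.2% and 11.8% in the same strata. The ligand JAG2 rose 1.37-fold and the target HES4 1.54-fold, while the receptor NOTCH3 fell 1.54-fold, from 2.11 to 2.71 CPM down to 1.54 to 1.602 CPM. The number lower was 4 without vector replicate 1 and 1 without vector replicate 2 or without the neighbours' shift. Of 24 TGF-beta and BMP targets 4 were higher and 7 lower (strata shares 15.2% and 13.4%): TGFBI, a matrix protein, rose 1.45-fold and PMEPA1, a feedback inhibitor, 1.47-fold, while ID3, a BMP target, fell by 0.38 ± 0.04. Of 20 YAP and TEAD targets 4 were higher and 6 lower (12% and 21% in their strata). WWC1, an upstream member of the Hippo pathway, had 20.1 to 20.2 CPM in the vector libraries and 29.3 to 31.4 CPM with MEL-18 WT. F3, tissue factor, rose 1.26-fold at 699 ± 19 CPM.

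Genes known from neurons rose more often than they fell. Of 22 synaptic adhesion molecules 12 were higher and 1 lower, against 15.3% and 9.93% in the same strata, with a median log2 fold change of 0.33. CADM1, an immunoglobulin-type adhesion molecule of synapses and epithelia, had 0.610, 0.297 and 0.414 CPM with the vector and 2.80, 2.96 and 2.86 CPM with MEL-18 WT. It rose by 2.70 ± 0.21 on the log2 scale (edgeR adjusted p = 1.0e-10). CNTNAP2, a neurexin-like protein, rose 4.34-fold among neighbours at -0.10. Of 34 synaptic and neurite proteins 11 were higher and 5 lower (strata shares 15% and 11.2%). The synaptotagmins, sensors of calcium in vesicle release, divided: SYT7 rose 3.62-fold and SYT13 2.72-fold, and SYT11 fell 3.99-fold from 0.99 ± 0.097 to 0.24 ± 0.13 CPM among neighbours at -0.23. Without that shift 2 of the list were lower. Of 6 neuron markers, SNAP25, STMN2, RBFOX3 and SLC17A7 held 32, 2, 8 and 32 counts with the vector and 9, 1, 19 and 38 with MEL-18 WT, GAD1 was called higher (0.30) and SYT1 lower (-0.51). The summed level of the 6 was 18.7 to 20.1 CPM and 18.4 to 19.97 CPM.

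Of 49 ephrins and axon guidance genes 19 were higher and 6 lower, against 15.1% and 12.4% in the same strata. UNC5B, a netrin receptor, had 0.549, 0.654 and 0.255 CPM with the vector and 1.90, 1.52 and 1.35 CPM with MEL-18 WT, 3.24-fold higher. RGMA, a ligand of neogenin, rose 3.84-fold, from 19 counts to 80. Of 38 voltage-gated and calcium release channels 13 were higher and 4 lower (strata shares 14.3% and 9.87%). CACNB4, a calcium channel subunit, rose from 14.7 ± 0.59 to 21.9 ± 0.56 CPM (SD, n = 3), by 0.57 ± 0.05, and CACNA1H, the T-type channel beside SSTR5, by 0.91 ± 0.12. The number of channels lower was 2 by DESeq2 and without vector replicate 3 or MEL-18 WT replicate 3, and 1 without vector replicate 2 or MEL-18 WT replicate 1.

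Collagens, too, rose more often than they fell. Of 28 collagens 14 were higher and 2 lower, against 14.6% and 10.7% in the same strata, with a median log2 fold change of 0.19. COL16A1 rose 1.66-fold and COL4A4, a basement membrane chain, 1.71-fold. COL14A1 had 8 counts with the vector and 43 with MEL-18 WT. COL6A3 went down 1.89-fold, from 1.19 to 1.61 CPM with the vector to 0.587 to 0.869 CPM. The summed level of 6 fibroblast markers was 15.4 to 16.2 CPM and 18.9 to 21.4 CPM. Of these, COL1A1 and PDGFRB were called higher, and COL3A1, with 53 and 48 counts, was not called. COL1A2 held 16 counts with the vector and 5 with MEL-18 WT, DCN 0 and 1 and LUM 2 and 4, too few to test. The part of such cells in the collagen counts was not tested.

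Laminins and integrins had 4 of 25 higher and 8 lower (13.3% and 16.9% in their strata). LAMA4, a laminin chain of vessels and muscle, had 6.86, 6.87 and 6.44 CPM with the vector and 18.5, 17.5 and 20.3 CPM with MEL-18 WT, a rise of 2.78-fold. LAMA3, a chain of the main epithelial laminin, rose 2.88-fold among neighbours at 0.12. ITGB4, the integrin that binds that laminin, fell from 121 ± 7.3 to 73.7 ± 1.2 CPM, by 0.71 ± 0.05 on the log2 scale (edgeR adjusted p = 3.8e-11). The number higher was 2 without vector replicate 1 and the number lower 5 without vector replicate 3.

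Matrix proteases and their inhibitors changed in equal measure, with 13 of 37 higher and 12 lower, against strata shares of 15.6% and 13.4%. MMP1, interstitial collagenase, had 0.579 to 0.684 CPM with the vector and 2.31 to 2.53 CPM with MEL-18 WT, 3.70-fold higher. ADAMTS9 rose 2.42-fold, and LOXL4, a collagen cross-linking enzyme, 2.08-fold among neighbours at 0.11. TIMP3, an inhibitor of metalloproteases, fell from 113, 113 and 125 CPM to 86.7, 78.0 and 86.6 CPM. CST1 and CST4, secreted inhibitors of cysteine proteases, were the lower members among 5 cystatins, of which 0 were higher (strata shares 12.3% and 15.7%). They are near-identical relatives, so how their reads were divided is uncertain.

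S100 proteins, small calcium-binding proteins, fell together: 9 of 11 were lower and 0 higher, against 14.7% and 11.9% in the same strata, with a median log2 fold change of -0.33. Most S100 genes lie in 1 cluster within the stretch of chromosome 1 that was lower as a whole, and their neighbours' median was -0.20. With the neighbours' shift taken out 4 were lower. S100A6 had 683, 660 and 672 CPM with the vector and 482, 482 and 486 CPM with MEL-18 WT, a change of -0.47 ± 0.04. S100A3 fell by 0.58 ± 0.14, and its call ended without the shift.

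Sterol genes fell together. Of 29 genes of sterol synthesis and uptake 19 were lower and 0 higher, against 21.1% and 12.2% in the same strata, and 15 to 18 were lower when 1 library was left out. The median log2 fold change was -0.13, with the neighbours' median at 0.00, and 17 were lower with the neighbours' shift taken out. Each change was small. MVD, the decarboxylase of the mevalonate pathway, had 61.9, 61.4 and 63.2 CPM with the vector and 50.4, 48.6 and 49.2 CPM with MEL-18 WT. MSMO1, a methylsterol oxidase, had 161, 160 and 172 CPM and 137, 129 and 128 CPM. Neither gene's groups overlapped, and they fell by 0.33 ± 0.04 and 0.32 ± 0.03 on the log2 scale among neighbours at -0.10 and -0.11. FDFT1, squalene synthase, fell by 0.41 ± 0.03 and HSD17B7 by 0.45 ± 0.05, among neighbours at -0.23 and -0.21. HMGCS1, the synthase at the entry of the pathway, named after its values were seen, fell by 0.29 ± 0.03.

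The promoters of MVD and MSMO1 are printed because sterol genes moved together. They are the 250 bases before the start site from RefSeq (GRCh38.p14), at chr16:88663092-88663341 on the minus strand and chr4:165327419-165327668 on the plus strand. Capitals mark the motifs searched on both strands, TCACNCCA, a core of sterol regulatory elements, and CCAAT, the box bound by NF-Y, which reads ATTGG on the other strand.
MVD: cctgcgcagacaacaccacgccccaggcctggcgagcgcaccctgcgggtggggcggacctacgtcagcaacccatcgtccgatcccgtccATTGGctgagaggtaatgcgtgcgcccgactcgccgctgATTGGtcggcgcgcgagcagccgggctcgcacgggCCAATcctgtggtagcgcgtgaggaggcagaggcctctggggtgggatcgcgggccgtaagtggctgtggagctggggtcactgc
MSMO1: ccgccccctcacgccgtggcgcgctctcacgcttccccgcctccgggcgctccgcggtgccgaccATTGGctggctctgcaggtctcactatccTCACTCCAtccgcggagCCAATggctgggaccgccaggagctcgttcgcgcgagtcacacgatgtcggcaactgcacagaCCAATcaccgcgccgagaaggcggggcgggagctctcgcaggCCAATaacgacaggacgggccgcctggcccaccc

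MVD holds CCAAT at 85 bases before the start and its reverse at 159 and 120 bases. MSMO1 holds TCACNCCA at 156 bases and CCAAT at 139, 76 and 34 bases, with its reverse at 185. Of 23 sterol genes with a promoter in the table, 17 held CCAAT and 3 held TCACNCCA in these 250 bases. Among promoters of all tested genes the shares were 34.8% and 2.67%. Of 15 lower sterol genes with a promoter, 11 held CCAAT and 2 held TCACNCCA. CCAAT was also held by 27 of 36 G2 and M phase genes. TCACNCCA was also held by 4 of 21 immediate early genes, 2 of 28 fatty acid genes and 1 of 36 G2 and M phase genes. These are matches of letters and no measure of binding.

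Fatty acid genes had 8 of 33 higher and 5 lower (strata shares 13.1% and 17.9%), with 4 higher once the neighbours' shift was taken out and 3 lower without vector replicate 3 or MEL-18 WT replicate 3. DGAT2, which completes triglycerides, had 3.78, 3.81 and 4.72 CPM with the vector and 11.2, 11.3 and 10.2 CPM with MEL-18 WT, 2.66-fold higher. CPT1A, the entry step of fatty acid oxidation in mitochondria, rose 1.21-fold among neighbours at 0.14. FABP4, a fatty acid carrier of adipocytes, fell 5.36-fold from a mean of 2.96 ± 0.089 CPM. The adipocyte markers as a sum, with the vector mostly FABP4 itself, went from 3.17 to 3.48 CPM down to 0.787 to 1.17 CPM. Of the other markers, ADIPOQ and LEP were at 0, and PLIN1 (39 and 44 counts, not called) and CIDEC (1 and 6 counts, not tested) did not fall. FAAH, which hydrolyses anandamide, rose 8.63-fold, from 52 counts to 489.

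Glycolysis genes had 7 of 24 higher and 1 lower, against 11% and 20.3% in the same strata, by changes of little size. PFKFB3, which makes the activator of phosphofructokinase, rose 1.15-fold from 74.6 ± 1.7 to 86.1 ± 2.8 CPM, and PFKL and PDK1 rose 1.11-fold and 1.14-fold. Of 30 hypoxia targets 8 were higher and 6 lower (strata shares 14.3% and 17.2%). CA12, a carbonic anhydrase of the cell surface, had 15.6, 15.5 and 17.8 CPM with the vector and 36.6, 32.3 and 35.0 CPM with MEL-18 WT, 2.13-fold higher. CA9, its relative, rose 1.65-fold, and BNIP3L, a receptor of mitophagy, fell 1.33-fold among neighbours at -0.21. The number of hypoxia targets lower was 3 with the neighbours' shift taken out, without vector replicate 3 and without MEL-18 WT replicate 2. Respiratory chain subunits had 4 of 76 higher and 12 lower (13.5% and 19.5% in their strata), and 5 lower without the shift. Their higher count was 9 without vector replicate 1, 2 without vector replicate 3 or MEL-18 WT replicate 2, and 10 with library totals alone. Further, 9 of 30 amino acid and glucose carriers were higher and 2 lower (strata shares 14.2% and 16.6%), with 5 higher without MEL-18 WT replicate 2.

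Of 23 genes of the amino acid response driven by ATF4, 10 were higher and 1 lower (2 lower by DESeq2 or without MEL-18 WT replicate 1), against 13.5% and 16.5% in the same strata, with a median log2 fold change of 0.12. SLC1A4, a carrier of neutral amino acids, had 4.45, 4.37 and 4.53 CPM with the vector and 7.83, 7.52 and 7.40 CPM with MEL-18 WT, 1.71-fold higher among neighbours at -0.13. NUPR1, a small stress protein, rose 3.48-fold from 25 counts to 95, and ADM2, a secreted peptide, 1.61-fold with MEL-18 WT values spread from 5.18 to 7.83 CPM. PHGDH, the first step of serine synthesis, rose 1.16-fold. Of 24 p53 targets 7 were higher and 2 lower (strata shares 15.4% and 15.2%). Without the neighbours' shift 1 was lower, and 4 were higher without MEL-18 WT replicate 1 or by DESeq2. FAS, the death receptor, rose 1.53-fold. Of 22 genes of the unfolded protein response 4 were higher and 7 lower (strata shares 12.7% and 19.8%), and 1 was lower without the neighbours' shift, 4 without vector replicate 3 or MEL-18 WT replicate 2. The higher count was 1 without MEL-18 WT replicate 1 or 3 or vector replicate 1 or 3, and 2 without vector replicate 2. Heat shock genes had 2 of 26 higher and 7 lower (12.4% and 18.9% in their strata), with HSPH1 at 1.15-fold lower. Their higher count was 0 without vector replicate 1 and 1 without vector replicate 2 or 3 or MEL-18 WT replicate 1.

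NRF2 targets and metallothioneins had 5 of 23 higher and 7 lower (strata shares 13.3% and 18.8%). NQO1, a quinone reductase, had 368, 360 and 375 CPM with the vector and 264, 265 and 281 CPM with MEL-18 WT, and fell by 0.45 ± 0.03. MT1A, a metallothionein, rose 2.45-fold. Metallothionein genes resemble each other closely, and how shared reads were counted is not given in the sources used here. The number higher was 3 without vector replicate 3, without MEL-18 WT replicate 2 and with the neighbours' shift taken out, and the number lower was 4 without MEL-18 WT replicate 1 or 3.

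Genes of the G2 and M phases were lower in part, by small changes. Of 42 G2 and M phase genes 15 were lower and 2 higher, against 22.9% and 10.9% in the same strata, with a median log2 fold change of -0.05. The count was unstable: 5 were lower without vector replicate 1, 7 without vector replicate 2, 6 without MEL-18 WT replicate 1, 8 without MEL-18 WT replicate 2 and 7 with library totals alone. NUF2, a kinetochore protein, fell by 0.38 ± 0.03 among neighbours at -0.20 and ECT2, an exchange factor of cytokinesis, by 0.25 ± 0.03 among neighbours at -0.12. MKI67, the proliferation antigen, named after its values were seen, went the other way, from 753 ± 4.1 to 826 ± 24 CPM (0.13 ± 0.03), among neighbours at 0.16, and its call ended without their shift, at -0.03. S phase genes had 2 of 45 higher and 8 lower, where the strata would give 13% and 20.2% and 17.8% were lower, a share near that of the strata. Without the neighbours' shift 1 was lower. The inhibitors of cyclin-dependent kinases CDKN1A and CDKN1C rose 1.23-fold and 1.46-fold and CDKN2C fell 1.13-fold, in a list with 3 of 16 higher and 7 lower (strata shares 13.1% and 19.8%).

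Proteasome subunits had 11 of 42 lower and 0 higher, and the lower share, 26.2%, was near the 23.5% of their strata (10.5% for higher). With library totals alone 3 were higher, and without the neighbours' shift 6 were lower. The calls of PSMB4 and PSMD4 in the stretch of chromosome 1 and of PSMA2 and PSMC2 on chromosome 7 ended without the shift. Of 77 cytosolic ribosomal proteins 7 were higher and 12 lower, with a median of 0.00 and strata shares of 9.7% and 23%. The lower count was 7 without vector replicate 1 and 4 without the shift, and the higher count was 3 without vector replicate 3, 2 without MEL-18 WT replicate 2, 4 without MEL-18 WT replicate 3, 1 without the shift and 11 with library totals alone. Of 75 mitochondrial ribosomal proteins 8 were higher and 8 lower (15.1% and 17.1% in their strata), but between 3 and 5 higher and between 4 and 7 lower when any 1 library was left out, and 3 higher and 2 lower without the shift. Of 37 tRNA synthetases 9 were higher and 3 lower (strata shares 12.6% and 20.6%, and 1 lower without the shift), and the number higher was 4 by DESeq2 or without the shift, 5 without vector replicate 3 and 3 without MEL-18 WT replicate 2. Splicing factors had 2 of 47 higher and 7 lower (10.1% and 23.8% in their strata), with 0 or 1 higher when any 1 library was left out, and 0 higher and 4 lower without the shift.

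**Figure D4:**
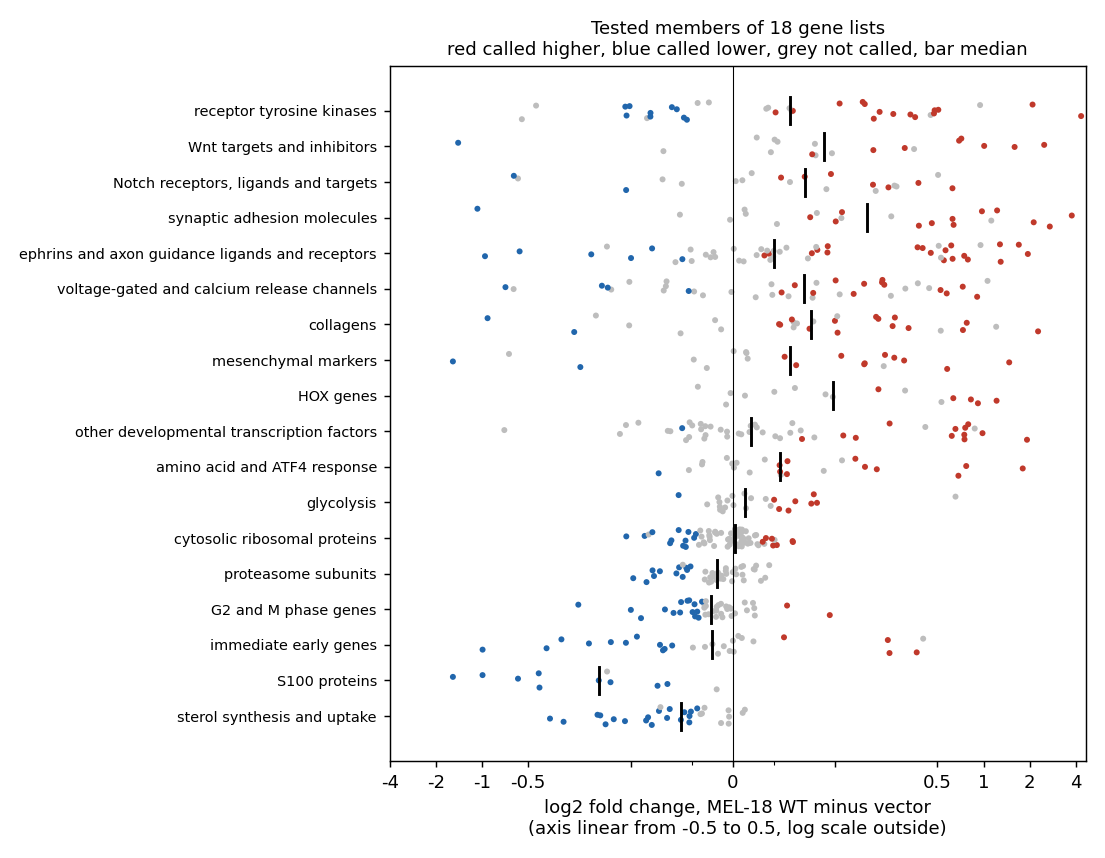
Each point is a tested member of 1 of 18 gene lists at its log2 fold change, MEL-18 WT minus vector, red if called higher, blue if called lower and grey if not called by edgeR's quasi-likelihood test, and bars are the lists' medians. The axis is linear between -0.5 and 0.5 and logarithmic outside. Synaptic adhesion molecules have a median of 0.33, sterol genes of -0.13 and S100 proteins of -0.33.

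Polycomb's own subunits changed little. Of 34 PRC1 genes other than PCGF2, 9 were higher and 3 lower, all by small folds (strata shares 14.5% and 18%). FBRSL1, a subunit of variant PRC1, rose 1.25-fold, BCORL1 1.21-fold, MGA, which brings PRC1 to E-box sites, 1.16-fold and CBX2, which reads histone methylation, 1.16-fold. The number lower was 1 by DESeq2, with library totals alone, and without vector replicate 1, MEL-18 WT replicate 2 or MEL-18 WT replicate 3. Of 15 PRC2 genes 1 was higher and 2 lower (13.6% and 19.4% in their strata). EZH2, the methyltransferase, had a log2 fold change of -0.18 ± 0.03 on chromosome 7 among neighbours at -0.10, and PHF19 one of -0.20 ± 0.03 among neighbours at -0.13. Both calls ended with the neighbours' shift taken out, and 1 other gene of the list was then lower.

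Developmental transcription factors, the classical targets of Polycomb silencing, rose in part. Of 15 HOX genes 5 were higher and 0 lower, against 15.3% and 6.89% in the same strata. HOXB9 had 11.5, 11.4 and 11.95 CPM with the vector and 21.1, 20.5 and 20.2 CPM with MEL-18 WT, 1.77-fold higher (edgeR adjusted p = 4.0e-11). Of 47 other developmental factors 12 were higher and 1 lower, against 15.7% and 10.9% in the same strata, with a median of 0.04. The number lower was 2 without vector replicate 3 or MEL-18 WT replicate 3 and 3 without the neighbours' shift. RUNX2, a factor of bone, rose 1.69-fold, from 11.01 ± 0.77 to 18.6 ± 1.0 CPM (SD, n = 3). MEIS3, a partner of HOX proteins, rose 1.98-fold and DLX3 had 11 counts with the vector and 46 with MEL-18 WT. PRRX1, a factor of mesenchyme, rose 2.76-fold, from 0.773 to 0.823 CPM up to 2.01 to 2.38 CPM, among neighbours at -0.16.

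Epithelial and mesenchymal markers both included more higher than lower genes. Of 20 mesenchymal markers 10 were higher and 2 lower, against 14.1% and 14.8% in the same strata. Of 24 epithelial markers 9 were higher and 4 lower, against 13.5% and 14.4%. SNAI1, a repressor of E-cadherin, rose 1.34-fold. CD24, a surface glycoprotein, had 3.78, 4.61 and 4.72 CPM with the vector and 6.18, 6.76 and 6.56 CPM with MEL-18 WT, 1.49-fold higher. KRT15 fell 1.53-fold, and the number of epithelial markers lower was 2 without MEL-18 WT replicate 3. Markers of luminal epithelium summed to 114 to 122 CPM with the vector and 143 to 147 CPM with MEL-18 WT, with EPCAM, KRT19, ERBB3 and FOXA1 called higher. The call of FOXA1 ended without the neighbours' shift. VIM, the mesenchymal filament, stood at 1447 and 1481 CPM and was not called. Of 14 breast cancer stem cell markers 9 were higher and 3 lower (strata shares 14.7% and 12.8%), including ABCG2, a drug exporter (1.78-fold), and ALDH1A3, an aldehyde dehydrogenase (1.5-fold). Hormone and luminal genes had 7 of 18 higher and 4 lower (15.5% and 12.6% in their strata), with PRLR, the prolactin receptor, 1.72-fold lower. The number higher was 4 without vector replicate 1.

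Actin contractile genes had 11 of 29 higher and 7 lower (strata shares 10.3% and 21%), and 7 higher without MEL-18 WT replicate 2. CRABP2, a carrier of retinoic acid, rose 2.17-fold from 16.7 ± 0.86 to 36.3 ± 1.4 CPM (SD, n = 3) within the lowered stretch of chromosome 1, among neighbours at -0.18.

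Immune genes showed no common direction. Of 38 interferon-stimulated genes 7 were higher (4 by DESeq2 or without the neighbours' shift) and 8 lower, with strata shares of 15.6% and 13.2%. Of 20 NF-kB targets 3 were higher and 5 lower (16.2% and 12.7%), and of 21 chemokines and interleukins 2 were higher and 4 lower (12% and 8.56%). ICAM1, the leukocyte adhesion receptor, had 4.33, 4.31 and 4.84 CPM with the vector and 8.70, 8.17 and 7.55 CPM with MEL-18 WT, 1.81-fold higher. NFKBIA, the inhibitor of NF-kB, fell from 38.3 ± 0.80 to 28.2 ± 0.70 CPM. IL11, a cytokine, fell 1.46-fold and CXCL8 1.6-fold, and CCL28 and CXCL16 rose 1.86-fold and 2.46-fold. HLA-B rose 1.32-fold in a list of 20 MHC class I and antigen processing genes with 5 higher and 2 lower (strata shares 13% and 18.1%). The number of NF-kB targets lower was 3 without vector replicate 2 and 2 without the neighbours' shift. For MHC class I genes the number higher was 3 without vector replicate 1, and the number lower was 1 by DESeq2 and without vector replicate 2 or MEL-18 WT replicate 1 or 2.

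LY9, a SLAM family receptor of lymphocytes, had 5 counts with the vector and 1115 with MEL-18 WT (ratio 206, exact 95% interval 88.0 to 636), while its neighbours SLAMF1 and CD48 held 0 and 3 counts and then 0 and 5. CD244, the next gene on the other side and also of the SLAM family, held 2 counts and then 20. The median of the neighbours of LY9 was -0.21. SLAMF7, also of that family, had a log2 fold change of -0.21 among neighbours at -0.20, and its call ended without their shift. PTPRC, the pan-leukocyte marker CD45, held 62 and 32 counts and was lower. The summed level of 9 lymphocyte markers was 0.981 to 1.13 CPM with the vector and 0.380 to 0.782 CPM with MEL-18 WT, the opposite direction to LY9.

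Lysosome and autophagy genes had 4 of 34 higher and 8 lower (strata shares 13.5% and 18.1%). CTSH, a cathepsin, rose 1.53-fold, CTSD, the main aspartic protease of lysosomes, fell 1.24-fold, and 5 were lower without the neighbours' shift. One-carbon, serine and nucleotide synthesis had 5 of 28 higher and 3 lower (strata shares 12.1% and 21.3%, and 1 lower without the shift), with 3 higher without vector replicate 3 or MEL-18 WT replicate 1 or 2, and 9 with library totals alone. Membrane serine proteases had 3 of 9 higher and 1 lower (11.3% and 9.43% in their strata), and the higher ones included PRSS3, a trypsin, at 1.28-fold. The lower one, PRSS23, was not called with library totals alone or without vector replicate 2 or 3 or MEL-18 WT replicate 2. Cancer-testis genes had 1 of 13 higher (0 without vector replicate 1 or MEL-18 WT replicate 2, and 2 without MEL-18 WT replicate 1) and 3 lower, with strata shares of 14.4% and 13.2% and MAGEA12 at 1.95-fold lower. HTR2C, a serotonin receptor, fell 3.87-fold, and EPB41L3, a membrane skeleton protein, 7.29-fold. PECAM1 and CDH5, which define endothelium, fell by 1.003 and 0.65 on the log2 scale from 93 counts each, and the call of CDH5 ended without the neighbours' shift. Among the other endothelial markers, KDR (99 and 118 counts) and VWF (28 and 26) were not called. TEK (15 and 14) and CLDN5 (11 and 9) were not tested.

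The MEL-18 T334A libraries are given beside some of these genes. The comparison of MEL-18 WT with MEL-18 T334A uses the same 3 MEL-18 WT libraries as the comparison with the vector, so the values share them. Genes of the response took every position. RASGRP3 had 1.47 to 1.69 CPM with MEL-18 T334A, against 1.52 to 1.82 with the vector and 10.6 to 12.04 with MEL-18 WT, and differed between the MEL-18 forms by 2.85 ± 0.10 on the log2 scale (MEL-18 WT minus T334A; edgeR adjusted p = 9.5e-18). SERP2 held 0 counts with MEL-18 T334A, RLBP1 0, RCN3 10 and FAAH 42, against 238, 105, 250 and 489 with MEL-18 WT. PDGFRA had 0.536 to 1.02 CPM with MEL-18 T334A, below the range of the vector. FABP4 and CST1 stood above the vector with MEL-18 T334A, at 7.499 to 9.76 CPM and 20.3 to 24.2 CPM, and below it with MEL-18 WT. ITGB4 had 101 to 123 CPM with MEL-18 T334A, and FDFT1 314 to 325 CPM, so that neither had the lower level seen with MEL-18 WT.

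Other genes were not called between the MEL-18 lines. MMP1 differed between them by -0.01 ± 0.14 on the log2 scale, WNT10B by -0.05 ± 0.11, SSTR5 by 0.10 ± 0.27, FGFR4 by -0.03 ± 0.06 and S100A4 by 0.18 ± 0.10 (edgeR). These errors leave room for small differences. LAMA4 and CADM1 lay between, at 10.8 to 11.9 CPM and 1.83 to 2.63 CPM. DUSP1 was lower still with MEL-18 T334A, at 62.9 to 67.3 CPM, and G0S2 higher still, at 146 to 154 CPM.

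**Figure D5:**
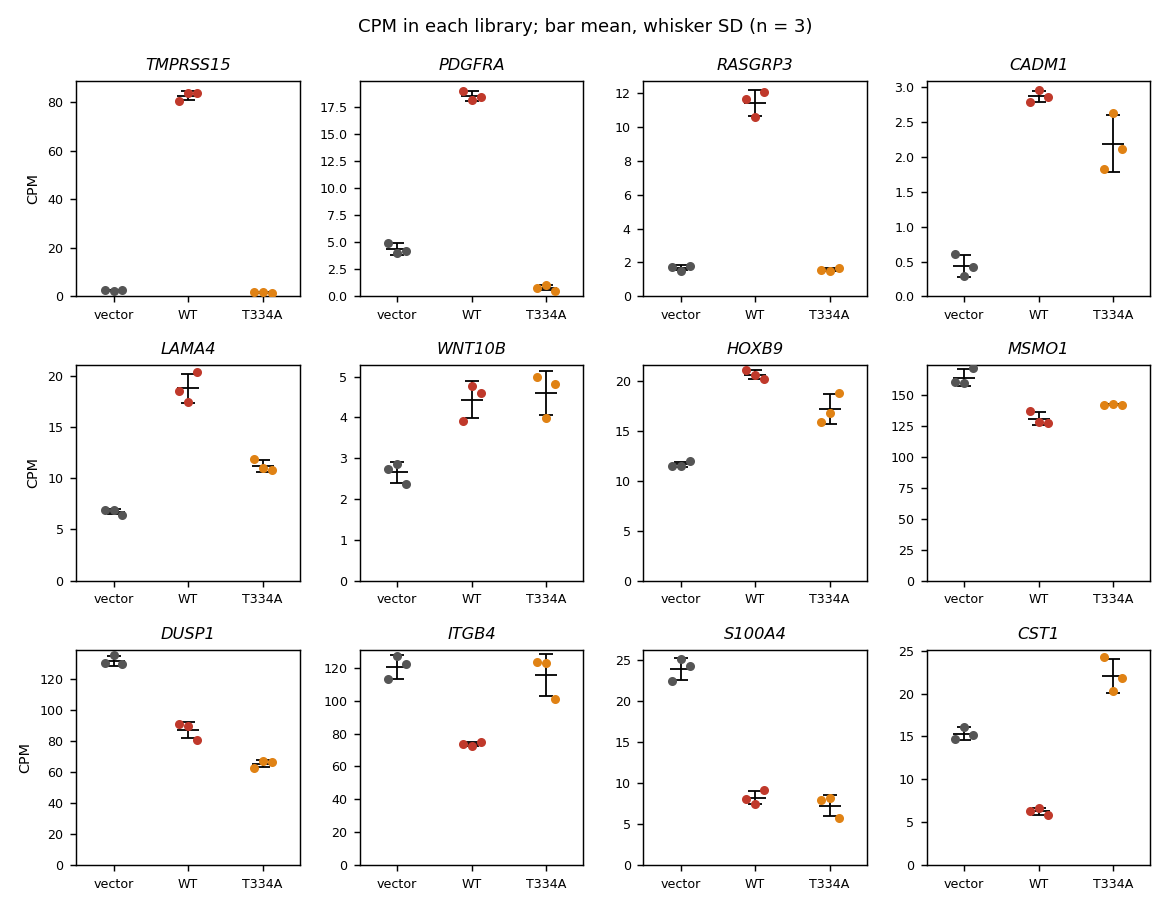
CPM of 12 genes in each of the 9 libraries, with the vector in grey, MEL-18 WT in red and MEL-18 T334A in orange. Bars are means and whiskers SD over 3 libraries, and each axis starts at 0. TMPRSS15 and RASGRP3 are high in MEL-18 WT alone among these groups, WNT10B is high in both MEL-18 lines, and CST1 is lowest with MEL-18 WT and highest with MEL-18 T334A.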

How the data were processed

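The 9 libraries were poly(A)-selected and strand-specific (TruSeq stranded mRNA, per the labels' protocols). The authors deposited whole-number read counts per gene symbol, made with CASAVA 1.8, STAR 2.5.3a and featureCounts of Subread 1.5.3 on hg19, per the submitters' processing notes. The sources used here do not give the annotation, the strand setting or the treatment of multi-mapping reads.

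Genes passing edgeR's filterByExpr were fitted over all 9 libraries (R 4.3.3, edgeR 4.0.16, TMM, no replicate term). The main test was the two-sided quasi-likelihood F test at a Benjamini-Hochberg adjusted p below 0.05, and glmTreat tested against 1.5-fold. Standard errors (SE) were derived from the fold change and its F statistic. The biological coefficient of variation was 2.57%. Promoters, gene names and gene order came from RefSeq on GRCh38.p14.

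The members, the 56 lists and the rule for named genes were chosen with earlier results of these data known. The rule took, from called genes with no overlap between groups, the 6 most raised and 6 most lowered per stratum and up to 4 per list. Neighbours of the 10 genes with the largest change and cell type markers were also named, and other genes are marked as chosen after their values were seen. A few genes are not reported here. Alternatives were DESeq2 1.42.0, limma 3.58.1 voom, RLE factors, library totals, other filters, a replicate block, the 6 libraries alone, the neighbours' shift taken out and each library left out.

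The fit was tested on simulated counts of MEL-18 WT against the vector over 14738 genes. It recovered 78% of 1.2-fold, 80% of 1.5-fold, 92% of 2-fold and 98% of 4-fold changes (50 genes each), with 16 false calls among 190. The simulation took its spread from the fit and held no changes below 1.2-fold and no shifted stretches of chromosomes. It therefore does not cover the smaller calls of the data, 999 of at most 1.1-fold and 1595 of 1.1-fold to 1.2-fold. Replicates differed by more than sampling noise, with chi-square statistics between 1.51 and 2.84 times their degrees of freedom in the compared groups and 2.53 to 4.14 among the MEL-18 T334A libraries, which entered the spread.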

Additional observations from a re-analysis of the deposited data

How the results depend on the processing

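The number of genes called lower was 1335 with the shift of 40 chromosomal neighbours taken out, against 2118. The test against 1.5-fold called 106 genes with DESeq2, against 190. When 3 or more libraries had to reach 1 CPM, which tests fewer genes, 142 called genes were over 2-fold, against 259, and 80.3% of calls below 1 CPM were higher, against 68.7%. The share of calls that were higher at 10 to 100 CPM was 60.5% with library totals alone, 59.8% with the neighbours' shift taken out and 61.0% outside the shifted stretches, an alternative chosen after seeing the data, against 49.1%. At 100 to 1000 CPM it was 40.5% with library totals alone, against 26.2%. At 1000 CPM and over it was 55.6% with library totals alone and 21.4% with the neighbours' shift taken out, against 36.8%. Apart from these, the cause was not tested.

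Leaving out 1 library gave 3429 to 3623 called genes, 1751 to 1876 higher and 1626 to 1747 lower, 158 to 172 past 1.5-fold and 249 to 287 over 2-fold. The share of calls that were higher then ran from 68.5% to 73.6%, 70.8% to 75.8%, 50.1% to 51.9%, 23.3% to 29.3% and 27.3% to 45.5% along the 5 strata. DESeq2 called 3354 genes in all, voom 4207 and the 6 libraries alone 4747.

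Of the 258 genes named by the rule, 234 were called in the same direction by DESeq2 and 213 with the neighbours' shift taken out. In that fit 7 took the opposite sign and none was called: TARS2 at 0.0038, MRPL9 at 0.069, RPS27 at 0.016, SCD at -0.016, ACTB at 0.026, PSPH at 0.016 and MCM7 at 0.0065. Leaving out 1 library ended 18 to 24 of these calls. Replicate numbers did not pair the libraries: same-numbered vector and MEL-18 WT libraries deviated with correlations of -0.22, 0.11 and 0.08 over 9585 genes, and not every library correlated best with its own number. With a replicate block 3962 genes were called. Depth limits the low strata, where the median standard error was 0.31 below 1 CPM.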

Other observations

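Zinc finger genes with ZNF symbols, a group chosen after the values were seen, were described apart for chromosome 19, where many of them lie in clusters. There 43 of 184 tested were lower (23.4%) and 6 higher, beside 14.4% in each direction over all tested genes. Their median depth was 8.42 CPM, and from 1 to 10 CPM 7.54% of all tested genes were lower and 19% higher. They had a median log2 fold change of -0.10 and a median of -0.07 among their neighbours, which are in large part the same genes. On other chromosomes 31 of 242 were lower and 28 higher, and of the other 765 genes of chromosome 19, 80 were lower and 84 higher. The difference between these groups was not tested. ZNF808 went from 1.79 ± 0.19 CPM with the vector to 0.198 ± 0.095 CPM with MEL-18 WT (SD, n = 3). Its log2 fold change was -3.15 ± 0.26 (SE), among neighbours at -0.11. ZNF28 fell by 1.53 ± 0.12, among neighbours at -0.10, and ZNF43 by 1.45 ± 0.20. With MEL-18 T334A these 3 genes stood at means of 1.17, 5.04 and 2.57 CPM. The proteins of this family are alike in sequence, and how reads shared between members were counted is not given in the sources used here.

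Long noncoding RNAs, by the RefSeq gene type, had 12.4% of 832 called, 38 higher and 65 lower, beside 30.9% of 13060 protein-coding genes. These types were not matched for read depth, and over all tested genes 12.2% were called below 1 CPM and 32.3% from 10 to 100 CPM. The difference was not tested. NFYC-AS1, an antisense transcript named after its values were seen, had 41.7, 36.7 and 36.1 CPM with the vector and 2.10, 1.76 and 1.90 CPM with MEL-18 WT, a log2 fold change of -4.31 ± 0.09 (SE), while NFYC itself stood at 50.1 and 52.9 CPM and was not called. Since the strand setting of the counting is not given, reads of the antisense transcript and of NFYC may not be fully told apart. ZFHX4-AS1 held 28, 32 and 39 counts with the vector and 0 in each MEL-18 WT library, at least 35.7-fold lower on a floor of 3 counts over the group, with ZFHX4 at 92 and 105 counts and not called.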
